A study of Sus scrofa with 6 samples.

Results

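The genes described here encode the respiratory chain and the ATP synthase of the inner mitochondrial membrane, measured as mRNA in white and black skin of Bama pigs. Members were taken by name: every mRNA of the expression table that the supplementary mRNA lists of the study give a symbol beginning with NDUF, SDH, UQCR, COX4, COX5, COX6, COX7, COX8 or ATP5, or the symbol CYC1. The rule found 34 of 14900 mRNAs. Of these, 30 are subunits, with 16 in complex I, 4 in complex III, 4 in complex IV and 6 in complex V. The other 4 are the assembly factors NDUFAF1, NDUFAF6 and SDHAF3, and ATP5S, a factor that is not part of the synthase itself. No subunit of complex II was among the members.

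All 34 names stood in the list of mRNAs that the study called different between these same samples, and none in its list of expressed mRNAs as read here. The readable part of that list left out the mRNAs with the largest rise in white skin. A higher level in white skin was therefore fixed by the choice of members, and it is given below as a description. To see the rest of the family, subunits were also looked up in a table that pairs gene identifiers with symbols and was not made from these data. Together both sources named 67 of 86 nuclear subunits that were looked for, of which 37 were not members, and 13 of 13 subunits encoded in the mitochondrial genome. The 19 nuclear subunits without a match were not analysed here.

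The samples came from 3 female Bama pigs aged 2 years, a miniature breed with black and white areas of coat. Each pig gave 1 sample of white skin, cut from its back, and 1 of black skin, cut from its buttock (n = 3 per skin). Coat color and body site changed together, so they cannot be told apart in these samples. Each sample was whole skin to a depth of 8 mm and held many cell types. Fewer cells of a type and less RNA per cell cannot be told apart in such bulk samples. Below, 3 values in a row belong to pigs 1, 2 and 3 in that order, and levels are FPKM, which count fragments relative to transcript length and library size, so that genes of different length can be compared.

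Complex I (NADH dehydrogenase) and complex II (succinate dehydrogenase) pass electrons from fuel molecules to ubiquinone, complex III (cytochrome bc1) passes them on to cytochrome c, and complex IV (cytochrome c oxidase) hands them to oxygen. Complexes I, III and IV pump protons across the membrane, and complex V (ATP synthase) lets them flow back to make ATP. Most subunits are encoded in the nucleus and imported, while a few central ones of complexes I, III, IV and V are encoded in the mitochondrial genome, so each of these complexes needs mRNAs from both genomes. Complex II is encoded in the nucleus alone and also works in the citric acid cycle.

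Over all 14900 mRNAs, 930 differed between the skins (limma, adjusted p below 0.05 and an absolute log2 difference above 1), which is 6.24%. White skin was higher for 391 (2.62%) and lower for 539 (3.62%), and the median log2 difference, white minus black on the log2(FPKM + 0.5) scale, was -0.31. Of 10 melanocyte markers found, 5 were lower in white skin past both thresholds and none rose. PMEL, a melanosome protein, was at 0.215, 0.151 and 0.391 FPKM in white skin and 103, 15.2 and 15.2 FPKM in black skin. TYR, the key enzyme of melanin synthesis, was at 0 in all 3 white samples and 6.93, 0.49 and 0 FPKM in black skin. It overlapped between the skins and did not pass (adjusted p = 0.248). White skin of pig 2 stood apart in markers of the upper epidermis, with KRT10 at 3.58 FPKM against 85.9 and 105 FPKM in the other white samples and KRT1 at 39.5 FPKM against 433 and 504 FPKM. Without this sample, 35 of 14900 mRNAs differed.

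All 34 members were higher in white skin, by log2 differences of 0.59 to 1.48 with a median of 0.97, and in all 34 the white sample exceeded the black sample in each of the 3 pigs. In 32 members every white sample lay above every black sample, and 14 passed both thresholds, where 2.62% of all mRNAs passed as higher. Without white or black skin of pig 2 none of the 34 passed, without white skin of pig 1 or black skin of pig 3 there was 1, and without white skin of pig 3 there were 5, but all 34 stayed above 0 in each of these fits and 29 to 31 had an unadjusted p below 0.05. The direction was fixed by the choice, so these counts are read only against other mRNAs of the same list. Of the 656 other listed mRNAs that were higher in white skin, 108 (16.5%) passed both thresholds, and their median log2 difference was 0.85. Both sets come from the readable part of the list, which left out the largest rises, so neither stands for the full list. Among all mRNAs, 9.62% had every white sample above every black sample. The members' summed level was 4036, 4488 and 4062 FPKM in white skin and 2331, 2083 and 1807 FPKM in black skin, so white skin held about double the summed mRNA of black skin on this per-length scale.

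The 63 nuclear subunits named by the table, members or not, were found without regard to their difference. Of these, 26 rose and none fell past both thresholds, against 2.62% and 3.62% of all mRNAs, and their median log2 difference was 0.94. The log2 difference was above 0 for 60 and below 0 for 3, and in 55 every white sample lay above every black sample. With the 4 subunits that the supplement alone names (NDUFS7, NDUFA13, NDUFC1 and COX6C), 28 of 67 rose and the median was 0.94. The 37 that are not members, of which 15 stand in the study's list of different mRNAs without a symbol, had a median of 0.76, and 14 of them rose. With a term for the pig in the model, 13 members and 25 nuclear subunits passed, against 3.23% of all mRNAs that passed as higher, and after quantile normalization 12 and 19 did, against 3.24%. The calls depended on single samples. Without white skin of pig 2 no nuclear subunit of the 67 passed both thresholds, although 64 stayed above 0, 50 had an unadjusted p below 0.05, and the median was 0.84. Without black skin of pig 2 there were 2 calls, without black skin of pig 3 or white skin of pig 1 there were 3, and without white skin of pig 3 there were 9. The number of all mRNAs called fell to between 35 and 321 in those same fits.

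**Figure D1:**
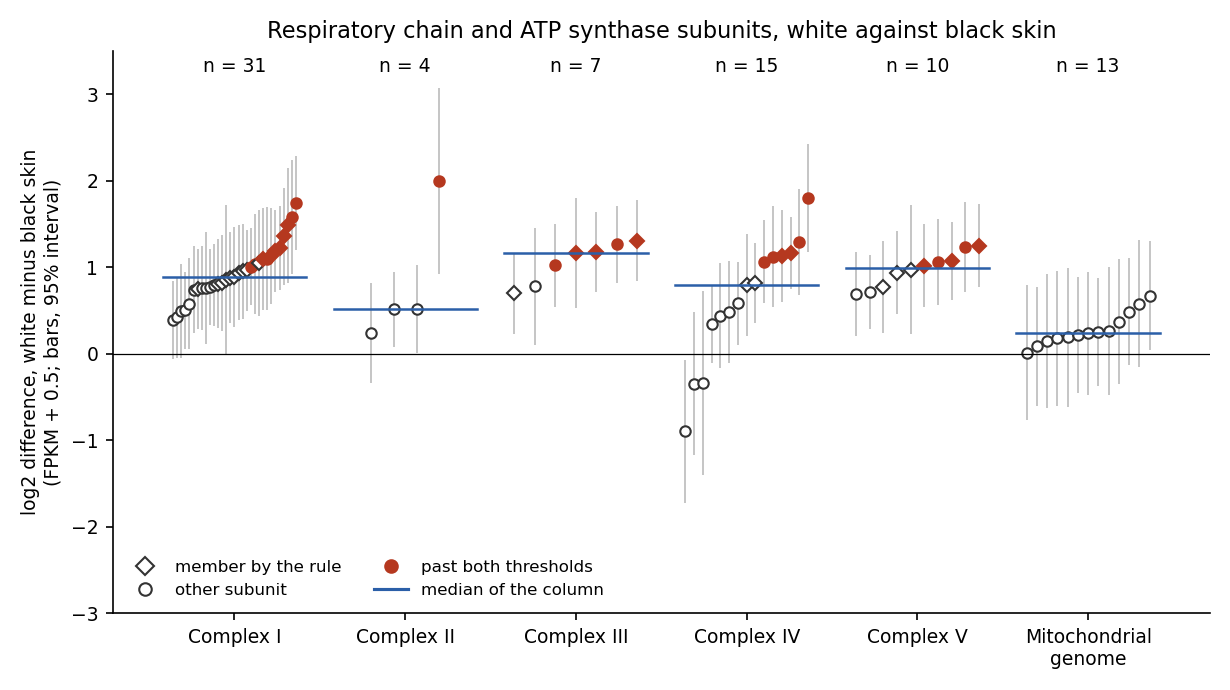
Log2 difference, white minus black skin, of 67 nuclear subunits in columns by complex and of 13 subunits of the mitochondrial genome, with 95% intervals of the limma fit as bars, members by the rule as diamonds, genes past both thresholds filled and the median of each column as a line. Most nuclear subunits lie between 0 and 2, 3 subunits of complex IV lie below 0, and no gene of the mitochondrial genome passed.

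Complex I had the most members. Its 31 nuclear subunits found were all higher in white skin, with a median log2 difference of 0.88, and 11 rose past both thresholds. The core subunits, which hold the flavin and the iron-sulfur clusters or line the path of the electrons, are described first, with gene positions from RefSeq on Sscrofa11.1. NDUFS7 (ENSSSCG00000024144, chr2:77080311-77087141), which carries the last iron-sulfur cluster before ubiquinone, was at 59.7, 117 and 62.2 FPKM in white skin and 29.7, 24.2 and 26.9 FPKM in black skin (log2 difference 1.48 ± 0.29 (SE), adjusted p = 0.0298). White skin of pig 2 was far above the other white samples, and the skins did not overlap. NDUFV2 (ENSSSCG00000038826, chr6:98819156-98852561), next to the flavin subunit, was at 18.7, 16.2 and 16.5 FPKM in white skin and 8.39, 8.68 and 8.54 FPKM in black skin (log2 difference 0.96 ± 0.20 (SE), adjusted p = 0.036). Its black samples were almost equal and its change was just under the threshold of size. NDUFS8 (ENSSSCG00000037455, chr2:4863295-4867392), which holds iron-sulfur clusters in the arm towards the membrane, was at 104, 133 and 55.1 FPKM in white skin and 41.2, 74.7 and 41.6 FPKM in black skin. Here black skin of pig 2 exceeded white skin of pig 3, so the skins overlapped, and the difference did not pass (log2 difference 0.85 ± 0.38 (SE), adjusted p = 0.18).

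Of the core subunits that are not members, NDUFS1 and NDUFV1 rose by more than any member. NDUFS1 (ENSSSCG00000016127, chr15:109413726-109451813), the largest core subunit, was at 61.3, 83.3 and 56.9 FPKM in white skin and 20.8, 16.1 and 22.00 FPKM in black skin (log2 difference 1.74 ± 0.24 (SE), adjusted p = 0.0127). NDUFV1 (ENSSSCG00000012896, chr2:4958508-4964211), which binds NADH and the flavin, was at 36.4, 52.9 and 27.2 FPKM in white skin and 10.1, 12.97 and 13.98 FPKM in black skin (log2 difference 1.57 ± 0.29 (SE), adjusted p = 0.0259). In both, the lowest white sample was well above the highest black sample, and pig 2 gave the highest white value. NDUFS3 had the smallest difference of the core, without overlap between the skins, at 13.9, 13.8 and 14.3 FPKM in white skin and 9.59, 11.3 and 10.2 FPKM in black skin (log2 difference 0.42 ± 0.20 (SE), adjusted p = 0.219, 95% interval -0.05 to 0.89). Together with NDUFV2 and NDUFS8 it was 1 of 3 core subunits that did not pass both thresholds.

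Of the supernumerary members, which surround and stabilise the core, NDUFA10, NDUFA6, NDUFB8 and NDUFS6 rose in white skin. NDUFA10 changed most, at 146, 212 and 126 FPKM in white skin and 59.8, 68.5 and 55.9 FPKM in black skin (log2 difference 1.36 ± 0.24 (SE), adjusted p = 0.0253). NDUFA6 was even across the white samples, at 53.9, 54.6 and 55.9 FPKM in white skin and 28.9, 20.04 and 21.6 FPKM in black skin (log2 difference 1.22 ± 0.21 (SE), adjusted p = 0.0231). The log2 differences of NDUFB8 and NDUFS6 were 1.13 and 1.09 (adjusted p = 0.0368 and 0.046). NDUFB9 was the most abundant member of the complex, at 369, 423 and 259.6 FPKM in white skin and 185, 185 and 164 FPKM in black skin (log2 difference 0.95 ± 0.24 (SE), adjusted p = 0.0539), and NDUFS4, whose loss causes Leigh syndrome in people, had the smallest difference, at 37.9, 41.9 and 44.8 FPKM in white skin and 26.01, 26.7 and 21.3 FPKM in black skin (log2 difference 0.74 ± 0.20 (SE), adjusted p = 0.0649). Neither passed, but the skins did not overlap for either gene. The remaining members NDUFA11, NDUFA13, NDUFB2, NDUFB11, NDUFC1 and NDUFC2 had log2 differences of 0.81 to 1.05 with adjusted p of 0.0554 to 0.08, and none of them passed. Outside the members, NDUFAB1, NDUFB1 and NDUFB5 rose (log2 differences 1.10, 1.04 and 1.00), all close to the threshold of size. NDUFB4 (0.39) had the smallest difference of the complex.

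Complex II had no member by the rule, but its 4 subunits were found through the name table. SDHA, the flavoprotein that oxidises succinate, was at 50.7, 69.4 and 49.5 FPKM in white skin and 37.02, 48.2 and 59.9 FPKM in black skin. The skins overlapped and the log2 difference was 0.23 with a 95% interval of -0.35 to 0.81 (adjusted p = 0.556). SDHB, the iron-sulfur subunit, and SDHD, a membrane anchor, did not overlap between the skins but were not called (log2 differences 0.51 and 0.51, adjusted p = 0.17 and 0.127). SDHC, the other anchor, gave the largest difference of all 67 subunits, at 50.9, 59.2 and 62.5 FPKM in white skin and 12.4, 6.98 and 31.2 FPKM in black skin (log2 difference 2.00 ± 0.47 (SE), adjusted p = 0.0466). Its black samples spread more than 4-fold, which set it apart from the other anchor, and black skin of pig 3 stood closest to the white samples.

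**Figure D2:**
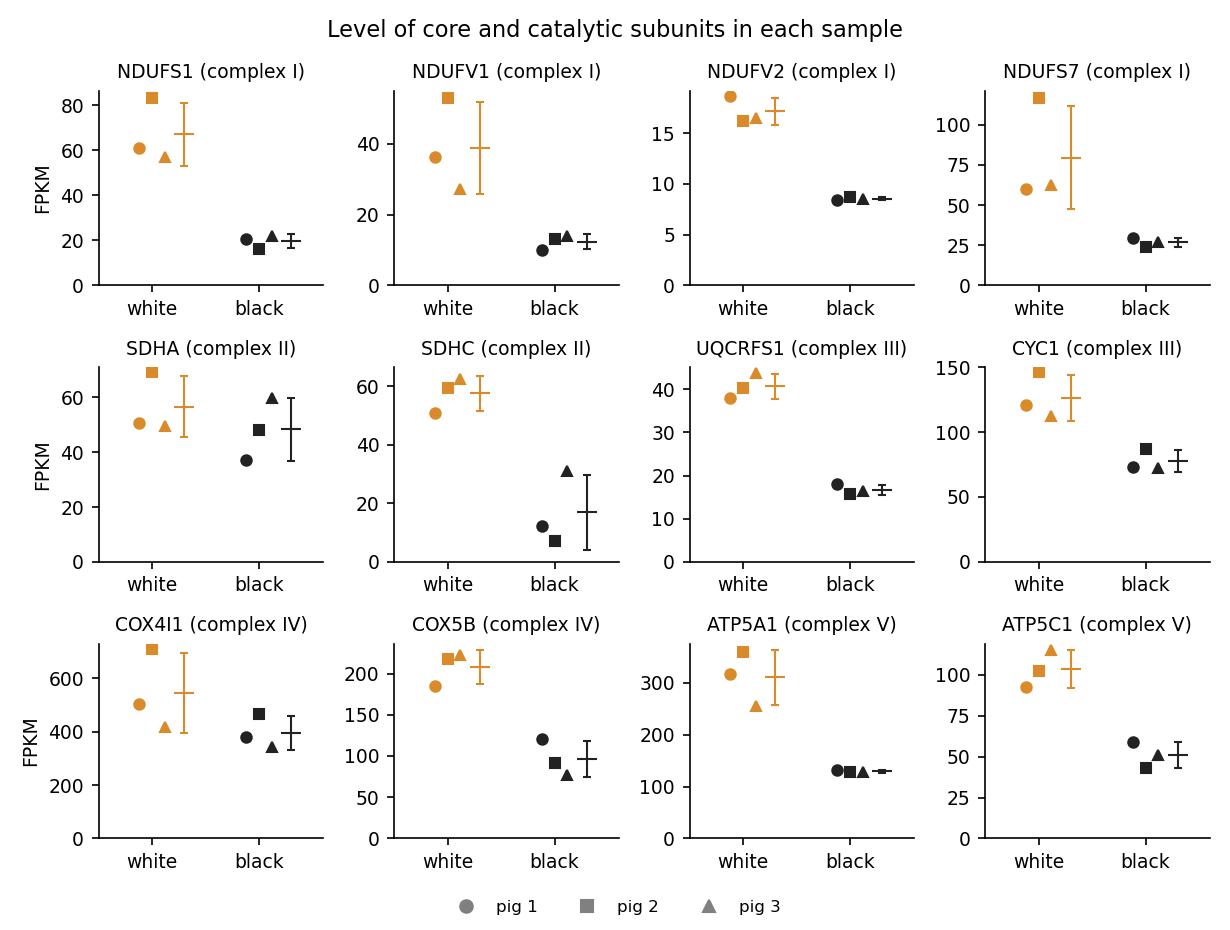
FPKM of 12 subunits with core or catalytic roles, or from complex IV where the core is encoded in the mitochondrial genome, in white and black skin, with one symbol per pig and the mean with its SD (n = 3) beside the points. White skin is above black skin without overlap for every gene shown except SDHA and COX4I1, and white skin of pig 2 is often the highest.

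In complex III, 3 of 4 members passed. UQCRC2, a structural core protein, was at 68.8, 87.1 and 83.3 FPKM in white skin and 34.6, 27.9 and 33.2 FPKM in black skin (log2 difference 1.31 ± 0.20 (SE), adjusted p = 0.0181). Its partner UQCRC1 was at 67.5, 89.7 and 74.3 FPKM in white skin and 27.4, 28.7 and 50.03 FPKM in black skin (log2 difference 1.16 ± 0.28 (SE), adjusted p = 0.0479), with black skin of pig 3 closest to the white samples. UQCRQ, a small subunit near cytochrome b, was at 120.2, 150.1 and 137 FPKM in white skin and 65.3, 61.8 and 52.6 FPKM in black skin (log2 difference 1.17 ± 0.20 (SE), adjusted p = 0.0224). These 3 genes were more than double in white skin on the fitted scale. CYC1, the cytochrome c1 that passes electrons to cytochrome c, was the most abundant member of the complex and had its smallest difference, at 121, 146 and 112 FPKM in white skin and 72.9, 87.2 and 72.3 FPKM in black skin (log2 difference 0.70 ± 0.20 (SE), adjusted p = 0.0765). Of the subunits outside the members, the Rieske iron-sulfur protein UQCRFS1 rose evenly, at 37.9, 40.3 and 43.7 FPKM in white skin and 17.97, 15.7 and 16.4 FPKM in black skin (log2 difference 1.26 ± 0.19 (SE), adjusted p = 0.0179). UQCR11 also rose (1.02, adjusted p = 0.033), while UQCR10 overlapped between the skins (0.78, adjusted p = 0.132) since black skin of pig 1 reached 135 FPKM.

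In complex IV the catalytic subunits COX1 and COX2 come from the mitochondrial genome, and the nuclear subunits surround them. COX6C had the largest difference among the 4 members, at 159.6, 152 and 147 FPKM in white skin and 73.1, 65.6 and 65.5 FPKM in black skin (log2 difference 1.16 ± 0.18 (SE), adjusted p = 0.0181), with little spread in either skin. COX5B, which binds zinc on the matrix side, was at 185, 218 and 222 FPKM in white skin and 120.5, 91.5 and 76.98 FPKM in black skin (log2 difference 1.13 ± 0.23 (SE), adjusted p = 0.0323). COX5A was at 93.7, 87.5 and 75.9 FPKM in white skin and 54.02, 41.96 and 49.9 FPKM in black skin and missed the threshold of size (log2 difference 0.81 ± 0.20 (SE), adjusted p = 0.0533). COX7A2, the most abundant of the 4, had the smallest difference, at 264, 334 and 353 FPKM in white skin and 247, 157 and 154 FPKM in black skin (log2 difference 0.79 ± 0.26 (SE), adjusted p = 0.0948), and white skin of pig 1 was only slightly above black skin of pig 1. Among the 11 subunits that are not members, COX7A1, NDUFA4, COX8A and COX7B rose (log2 differences 1.80, 1.29, 1.12 and 1.06). NDUFA4 was first placed in complex I, as its name says, and is now counted in complex IV. COX4I1, the common form of the largest nuclear subunit, was at 504, 710.2 and 418 FPKM in white skin and 378, 465 and 341 FPKM in black skin, and the skins overlapped (log2 difference 0.44 ± 0.26 (SE), adjusted p = 0.298). COX7C, COX6A1 and COX7A2L were not called either, at log2 differences of 0.48, 0.58 and 0.34.

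Complex IV also held the 3 nuclear subunits with a log2 difference below 0, and each is a tissue-specific form of a subunit. COX4I2, a form best known from the lung, was at 14.7, 11.3 and 7.71 FPKM in white skin and 16.6, 33.6 and 15.8 FPKM in black skin (log2 difference -0.90 ± 0.36 (SE), adjusted p = 0.149), and every white sample lay below every black sample. COX6A2, the form of heart and skeletal muscle, was at 7.04, 7.14 and 7.66 FPKM in white skin and 5.66, 16.1 and 8.99 FPKM in black skin (log2 difference -0.35 ± 0.36 (SE), adjusted p = 0.537), and COX6B2, the testis form, stayed below 3 FPKM in all samples (log2 difference -0.34 ± 0.46 (SE), adjusted p = 0.638). None of the 3 passed, and after quantile normalization COX6B2 was at 0.04 and COX6A2 at -0.05, so no direction is given for these. COX7A1, the form of COX7A in heart, muscle and brown fat, was higher instead, at 32.4, 43.6 and 36.8 FPKM in white skin and 7.95, 14.5 and 9.64 FPKM in black skin (log2 difference 1.80 ± 0.27 (SE), adjusted p = 0.017).

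The forms of a subunit take the same place in the complex, so the share of one form in its pair was compared within each sample. These 4 pairs were chosen after their values were seen. COX7A1 made up 10.9, 11.6 and 9.45% of COX7A1 plus COX7A2 in white skin and 3.12, 8.48 and 5.91% in black skin. COX4I2 made up 2.83, 1.56 and 1.81% of COX4I2 plus COX4I1 in white skin and 4.203, 6.73 and 4.41% in black skin. Thus every white sample had a higher share of COX7A1 and a lower share of COX4I2 than any black sample. The share of ATP5MC1 in the pair ATP5MC1 and ATP5G3, which encode the same mature c-ring protein, was 13.6, 14.2 and 13.9% in white skin and 14.8, 17.95 and 18.7% in black skin. The share of COX6A2 overlapped, at 11.9, 12.96 and 16.2% and 14.1, 34.3 and 24.6%. With 3 samples against 3 an exact two-sided permutation test cannot go below p = 0.1, the value it gave for each of the 3 pairs without overlap (0.133 after Benjamini-Hochberg adjustment over the 4 pairs), and it gave p = 0.2 for COX6A2. The test did not keep the pairing of samples by pig, and after such a choice of pairs its p-values are only descriptive.

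**Figure D3:**
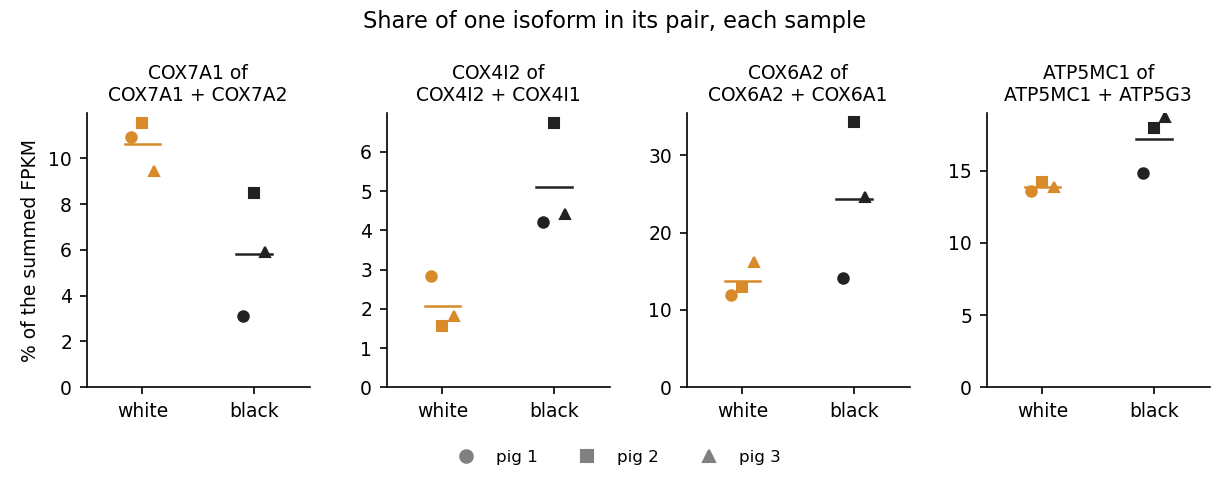
Share of one isoform in the summed FPKM of its pair, in percent, for 4 pairs, with one symbol per pig and the mean as a line (n = 3 per skin). The COX7A1 share is higher and the COX4I2 and ATP5MC1 shares are lower in all 3 white samples than in any black sample, while the COX6A2 share overlaps.

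Complex V members had the highest median level of the complexes. ATP5A1 (now ATP5F1A, ENSSSCG00000004499, chr1:95738789-95750835), the alpha subunit of the catalytic F1 head, was at 317, 359.6 and 254 FPKM in white skin and 132, 128 and 128 FPKM in black skin (log2 difference 1.25 ± 0.21 (SE), adjusted p = 0.0209). The 3 black samples were nearly equal, and all white samples were about double or more. ATP5C1 (now ATP5F1C, ENSSSCG00000034086, chr10:63584288-63599537), the gamma subunit that turns inside the head, was at 92.4, 102 and 115 FPKM in white skin and 58.9, 43.1 and 51.03 FPKM in black skin (log2 difference 1.02 ± 0.21 (SE), adjusted p = 0.0331). ATP5G3 (now ATP5MC3), which encodes the proton-carrying c ring, was at 358, 384 and 349 FPKM in white skin and 196, 169 and 156 FPKM in black skin (log2 difference 1.07 ± 0.20 (SE), adjusted p = 0.026). These 3 rose in white skin. ATP5I (now ATP5ME), a small membrane subunit, was the most abundant member of all, at 499, 445 and 560.2 FPKM in white skin and 343, 313 and 154 FPKM in black skin, but black skin of pig 3 was far below the other black samples and the difference did not pass (log2 difference 0.97 ± 0.32 (SE), adjusted p = 0.102). ATP5O (now ATP5PO), the stalk subunit that holds the head still, was at 329.9, 315 and 404 FPKM in white skin and 208, 169.9 and 169 FPKM in black skin and passed the adjusted p but not the threshold of size (log2 difference 0.94 ± 0.21 (SE), adjusted p = 0.0418). ATP5F1 (now ATP5PB), also of the outer stalk, had the smallest difference of the 6, at 37.4, 33.6 and 35.9 FPKM in white skin and 26.98, 18.98 and 17.2 FPKM in black skin (log2 difference 0.77 ± 0.23 (SE), adjusted p = 0.0812). Of the 4 subunits that are not members, ATP5PF and ATP5MK rose (log2 differences 1.23 and 1.06, adjusted p = 0.0262 and 0.0329), while ATP5MC1 and ATP5F1D did not pass (0.71 and 0.69, adjusted p = 0.0593 and 0.0838). All 10 were higher in white skin with no overlap between the skins.

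The 4 members that are not subunits were low, and none passed. NDUFAF6 was at 3.68, 5.97 and 2.85 FPKM in white skin and 1.55, 2.17 and 1.504 FPKM in black skin (log2 difference 1.02 ± 0.32 (SE), adjusted p = 0.0918), NDUFAF1 at log2 0.73 and ATP5S (now DMAC2L) at log2 0.62. SDHAF3 overlapped between the skins, at 3.74, 4.69 and 8.03 FPKM in white skin and 3.05, 2.496 and 4.71 FPKM in black skin (log2 difference 0.59 ± 0.35 (SE), adjusted p = 0.301). In the wider list of assembly factors and related genes, 32 of 38 were found, 2 rose (NDUFAF8, log2 difference 1.13, and UQCC2, adjusted p = 0.0244) and none fell, with a median log2 difference of 0.43. The 2 rises were 6.25% of the list, against 2.62% of all mRNAs, and are not read as a result about the list. The median level of the list was 6.93 FPKM, against 53.2 FPKM for the 67 nuclear subunits.

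The 13 subunits of the mitochondrial genome were among the most abundant mRNAs of the skin, and 12 of them overlapped between the skins. By limma none of the 13 passed both thresholds, 1 had an unadjusted p below 0.05 (ND6), and a model with a term for the pig called none either, with no unadjusted p below 0.05. Their log2 differences ran from 0.01 to 0.67 with a median of 0.23, which was 0.45 after upper-quartile scaling, with all 13 above 0. After quantile normalization the median was 0, with 5 above 0 and 6 below. That method gives equal values to equal ranks, and these genes are among the most abundant. It therefore draws their differences towards 0 and cannot show that they are absent. COX1, the catalytic subunit of complex IV, was at 10729, 12325 and 16432 FPKM in white skin and 11028, 12747 and 8959.8 FPKM in black skin (log2 difference 0.26, 95% interval -0.48 to 1.01). CYTB, the cytochrome b of complex III, was at 4985, 6200.1 and 8150.2 FPKM in white skin and 5396, 5791 and 5134 FPKM in black skin (log2 difference 0.22, 95% interval -0.46 to 0.89). ND1 of complex I was at 1187, 1556 and 1939.9 FPKM in white skin and 1044, 1296 and 966 FPKM in black skin (log2 difference 0.48, 95% interval -0.13 to 1.10). In each, the skins overlapped. The upper ends of these intervals were close to the nuclear median of 0.94, so the spread between samples leaves room for differences of nearly that size. Within a pig the sign of the list differed: the median log2 difference of the 13 genes was -0.11 in pig 1, 0.10 in pig 2 and 0.86 in pig 3, while that of the 67 nuclear subunits was 0.72, 0.92 and 0.99.

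The summed level of the 67 nuclear subunits was 7908, 8795 and 7906 FPKM in white skin and 4855, 4378 and 3861 FPKM in black skin. That of the mitochondrial genome was 62702, 75717 and 102199 FPKM and 65114, 76837 and 56089.6 FPKM. The nuclear sums did not overlap between the skins and the mitochondrial sums did. The ratio of the mitochondrial to the nuclear sum was 7.93, 8.61 and 12.9 in white skin and 13.4, 17.6 and 14.5 in black skin, lower in every white sample, with white skin of pig 3 close to black skin of pig 1. A factor that scales a whole library leaves this ratio unchanged, and its difference was not tested. The libraries were enriched for poly(A) RNA, and whether mRNAs of both genomes were captured alike was not tested. The mitochondrial genome made up 13.5, 16.6 and 20.4% of all FPKM in white skin and 14.02, 17.1 and 13.7% in black skin.

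**Figure D4:**
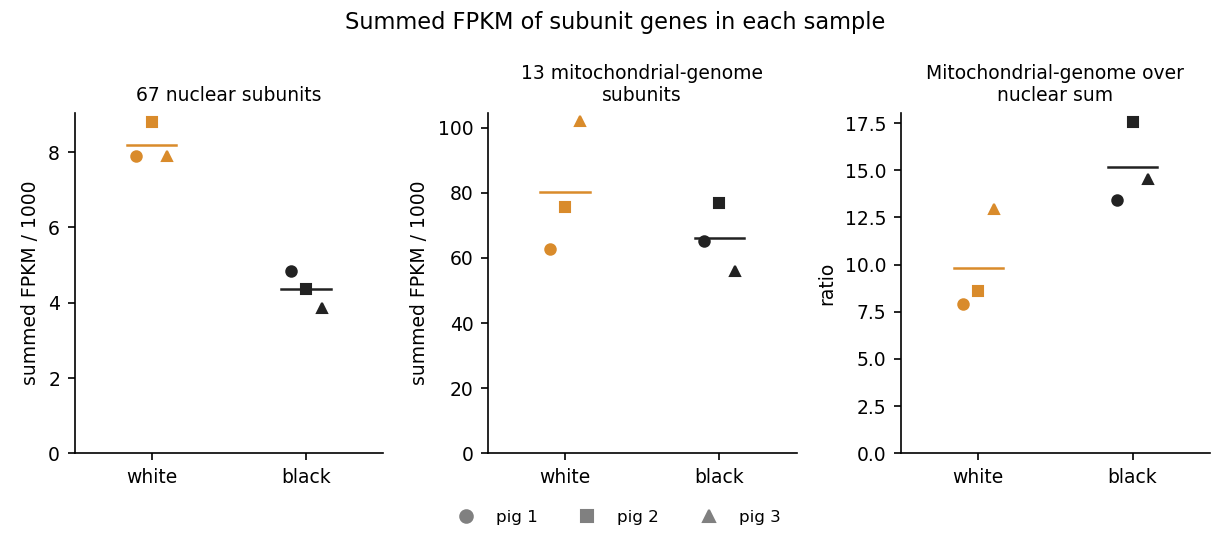
Summed FPKM of 67 nuclear subunits, summed FPKM of the 13 subunits of the mitochondrial genome and the ratio of the second to the first, with one symbol per pig and the mean as a line (n = 3 per skin). The nuclear sum is higher in each white sample than in any black sample, the mitochondrial sum overlaps, and the ratio is lower in white skin.

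Some further features were not named in the rule. The members still came from a list of mRNAs called different, and such calls can depend on level and spread. The 34 members had a median percentile of 93.8 in mean FPKM among all 14900 mRNAs, and the 30 that are subunits lay at percentile 64.8 or above. Outside the members, COX6A2 and COX6B2 lay lower, at percentiles 61.4 and 25.4. Between subunits the level still varied widely, from 9.92 FPKM for NDUFB11 to 386 FPKM for ATP5I in the mean over all samples of the member subunits, although a complex holds most of its subunits once. The order of levels was kept between samples: over the 67 nuclear subunits, Spearman's rho between pairs of samples was 0.887 to 0.978, a correlation across genes, which are not independent. The share of complex I in the nuclear sum overlapped between the skins, at 30.8, 32.04 and 28.7% in white skin and 29.6, 30.5 and 30.4% in black skin, as did those of complexes II, III and V. The share of complex IV was lower in every white sample than in any black sample, at 30.6, 31.3 and 30.3% in white skin and 32.9, 32.9 and 32.1% in black skin, a difference that was not tested. The share of complex II ran from 2.71 to 4.99%, with both ends in black skin. The spread within a skin was small: the median SD of log2 values was 0.242 for the 63 subunits named by the table, against 0.334 for the 5204 mRNAs with a mean FPKM of 10 or more. In that better expressed part of the table, 5.25% of mRNAs passed as higher in white skin. The 29 members with a RefSeq position lay on 15 chromosomes. For 10 of these members the study's listed locus was 4.43 to 50.5 times as wide as the RefSeq gene. They were COX6C, ATP5G3, NDUFB9, NDUFB2, NDUFB11, NDUFS8, ATP5S, NDUFC1, NDUFS7 and ATP5F1. Levels of these 10 are uncertain to the extent that neighbouring genes were counted with them.

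Genes that feed the chain were compared from fixed lists. Of the carriers of electrons and adenine nucleotides, 10 of 11 were found, 4 rose (40%, against 2.62% of all mRNAs) and none fell. The 4 were ETFA, ETFB and ETFDH, which bring electrons from fatty acid oxidation to ubiquinone, and SLC25A4, the muscle form of the ADP/ATP carrier. Their log2 differences were 1.12, 1.25, 1.74 and 1.96 (adjusted p = 0.0281, 0.0261, 0.0287 and 0.0124). SLC25A4 was at 21.8, 23.7 and 33.2 FPKM in white skin and 5.097, 6.25 and 7.74 FPKM in black skin, whereas SLC25A5 and SLC25A6, the other carrier forms, were not called (0.77 and 0.88). Of 13 genes of the citric acid cycle, 3 rose (23.1%) and none fell, IDH3B (1.11), DLD (1.18) and MDH2 (1.68), and the median of the 13 was 0.63. Without white skin of pig 2 none of these carriers, cycle genes or assembly factors passed.

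Cell type markers moved with the skins as well. For the lists below, the shares over all mRNAs were 2.62% higher and 3.62% lower in white skin. A list with a single call is not read as changed. Of 7 smooth muscle markers, 6 rose in white skin, and the summed level of the list was 4950.4 to 7363 FPKM in white skin and 542 to 1768 FPKM in black skin. DES, a muscle filament protein, was at 917, 976 and 1052 FPKM in white skin and 40.2, 68.1 and 134 FPKM in black skin (log2 difference 3.77 ± 0.40 (SE), adjusted p = 0.0082), and MYH11, smooth muscle myosin, at 692, 1248 and 568 FPKM in white skin and 52.6, 140.2 and 242 FPKM in black skin (log2 difference 2.69 ± 0.54 (SE), adjusted p = 0.032). No marker of this list was at 0 in any sample. The skeletal muscle list, of which 7 of 15 genes were found, had 1 rise, the creatine kinase CKM, at 45.8, 66.2 and 27.99 FPKM in white skin and 1.398, 2.28 and 4.66 FPKM in black skin, and its summed level was 35.2 to 72.9 FPKM in white skin and 11.6 to 19.1 FPKM in black skin. Most of the white sum was CKM, and without it the sum was 6.69 to 7.29 FPKM in white skin and 6.91 to 17.7 FPKM in black skin. TNNI2 and MYBPC2, proteins of the contractile apparatus, had log2 differences of -1.24 and -1.54 and did not pass, and every white sample lay below every black sample for MYBPC2. ACTA1, the actin of skeletal muscle, stayed at or below 1.77 FPKM in every sample.

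In the sebaceous gland list, which also holds general lipid genes, 3 of 7 rose: SCD, a fatty acid desaturase, at 7552, 9979.9 and 4946 FPKM in white skin and 1314, 824 and 1320.5 FPKM in black skin, MGST1 (log2 difference 2.61) and PLIN2 (2.02). The sum of that list was 6161 to 11627 FPKM in white skin and 1122 to 1737 FPKM in black skin, most of it SCD, and without SCD it was 1215 to 1647 FPKM in white skin and 298 to 422 FPKM in black skin. ELOVL3 and SOAT1 had log2 differences of -2.07 and -0.76 and did not pass. ELOVL3 was listed at 0 in white skin of pig 2, and SOAT1 was lower in every white sample than in any black sample. Lower in white skin were 7 of 11 adipocyte markers (sums 254 to 669 FPKM in white skin and 1043 to 2437 FPKM in black skin), 4 of 9 fibroblast markers (sums 2567 to 5216 FPKM in white skin and 7497 to 11281 FPKM in black skin), 3 of 5 endothelial markers (sums 35.1 to 40.8 FPKM in white skin and 79.6 to 166 FPKM in black skin), 5 of 10 melanocyte markers (sums 6.92 to 10.6 FPKM in white skin and 42.1 to 191 FPKM in black skin) and 1 of 7 immune markers (sums 8.84 to 23.6 FPKM in white skin and 25.4 to 71.8 FPKM in black skin). None of 7 keratinocyte markers passed (sums 149.6 to 803 FPKM in white skin and 453 to 1154 FPKM in black skin). Of 6 brown fat markers 4 were found, and COX7A1, also a subunit of complex IV, was the 1 that rose (sums 36.1 to 46.8 FPKM in white skin and 17.2 to 19.96 FPKM in black skin). Without COX7A1 the sums were 3.201 to 3.74 FPKM in white skin and 5.46 to 9.798 FPKM in black skin, and DIO2, PPARA and PRDM16 had log2 differences of -1.04, -0.71 and -0.65 and did not pass. Without white skin of pig 2, 1 smooth muscle, 1 skeletal muscle, 1 sebaceous and 1 melanocyte marker passed, and none of the other lists. The part of these cell types in the level of the subunits was not tested.

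Within a skin, the order of the samples gave a further description. The same counts over all mRNAs are not given here, and genes of a list are not independent. The cause of the order was not tested. In white skin, pig 2 was highest for 31 of 67 nuclear subunits and for 6 of 7 smooth muscle markers. In black skin, pig 1 was highest for 37 of 67 nuclear subunits but lowest for 7 of 7 smooth muscle markers, and pig 3 was lowest for 33 of 67 nuclear subunits but highest for 7 of 7 smooth muscle markers and for 11 of 11 adipocyte markers. Other lists shared only a part of this order. Black skin of pig 1 was also the highest black sample for 7 of 7 keratinocyte, 9 of 10 melanocyte and 5 of 7 sebaceous gland markers. But pig 2, not pig 3, was the lowest black sample for 5 of 7 keratinocyte, 7 of 10 melanocyte and 4 of 7 sebaceous gland markers. White skin of pig 2 was the lowest white sample for 6 of 7 keratinocyte markers. It was the highest for 1 of 10 melanocyte and 3 of 7 sebaceous gland markers, and white skin of pig 3 was also highest for 3 of these 7. The sebaceous gland sum was highest in white skin of pig 2, at 11627 FPKM against 8924 and 6161 FPKM in pigs 1 and 3. Without SCD it was 1647 FPKM against 1372 and 1215 FPKM.

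**Figure D5:**
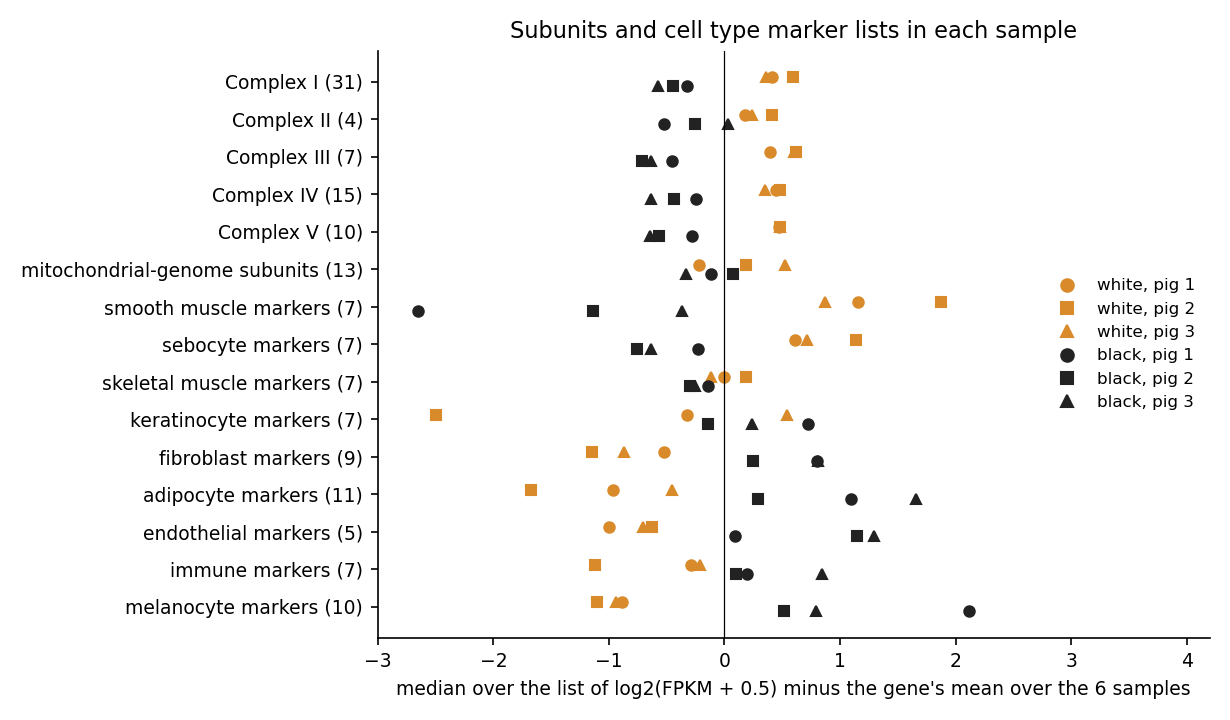
Median over each list of log2(FPKM + 0.5) minus the gene's own mean over the 6 samples, for nuclear subunits by complex, subunits of the mitochondrial genome and cell type marker lists, with the number of genes found in brackets and one symbol per skin and pig. The medians of the subunits of each complex separate the skins without overlap, and the mitochondrial-genome subunits do not separate them.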

How the data were processed

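RNA of 3 white and 3 black skin samples was enriched for poly(A) RNA and sequenced by the authors as strand-specific paired-end libraries. The deposited values are FPKM per gene, computed by the authors with StringTie and kept where FPKM exceeded 0.5 in at least 1 sample. The paper's methods name TopHat as the aligner to Sscrofa11.1, whereas the submitters' processing notes name HISAT2 2.0.4 with StringTie 1.3.3, so the aligner is uncertain. FPKM hold no counts: sequencing depth per gene is unknown, and counting error could not be given. FPKM are relative to the whole library, and no further normalization is stated. The lncRNA values were not used.

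Differences between the skins were fitted on log2(FPKM + 0.5) by limma 3.58.1 (trend option, R 4.3.3), with Benjamini-Hochberg adjustment over all 14900 mRNAs. Fold differences are on that scale, which understates changes of low genes. The fit was tested on simulated data. The pig was left out of the model, as in the study. Both skins came from the same pigs, and samples of a pig deviated together from their skin means (r = 0.21, 0.36, 0.20), so a replicate block for the pig was one alternative, beside other pseudocounts, scalings, a filter and fits without each sample. Isoform shares were compared with exact permutation tests that did not keep the pairing by pig.

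Names came from the study's supplementary lists (2308 mRNAs) and from a table of gene identifiers (12236 of 14900 mRNAs). Positions are those of RefSeq for Sscrofa11.1, matched by symbol. Members are named, except 1 that is not reported here on its own. Values in every sample were given for core subunits and, in each complex, for the most abundant member and those with the largest and smallest difference, and other genes were picked after their values were seen. Members and lists were chosen with earlier results of these data known.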

Additional observations from a re-analysis of the deposited data

How the results depend on the processing

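All 34 members stayed higher in white skin under each of the 13 alternatives, and the median log2 difference of the members lay between 0.94 and 1.18. Their direction was fixed by the choice of members, so the kept sign is only a description. Of the 37 nuclear subunits that are not members, 34 or 35 stayed above 0, with medians of 0.68 to 0.97. Of these 37, 15 also stand in the study's list of different mRNAs. The counts of calls were less stable. Upper-quartile scaling raised the members past both thresholds from 14 to 23 and the members' median to 1.18, and it gave 38 of the 67 nuclear subunits. Leaving out one sample at a time gave 0 to 13 members, 0 to 23 nuclear subunits and 35 to 847 of all mRNAs past both thresholds, the lowest without white skin of pig 2 in each (shared with black skin of pig 2 for the members). These fits have fewer samples, and an arm of 2. With the pig as a block, 13 members, 25 nuclear subunits and 1439 of all mRNAs passed. The block lost NDUFB8 among the members (adjusted p = 0.0511), and NDUFAB1 and UQCR11 outside them, and changed no other call among the subunits. Quantile normalization gave 12 members, of which 8 were among the 14 called on the deposited scale, and 19 nuclear subunits. Without the trend option of limma, 10 members and 20 nuclear subunits passed. The median of the complex I members was 1.06 after quantile normalization and 1.17 after upper-quartile scaling, and 0.91 to 1.04 without single samples. On the deposited scale the medians were 0.96 for complex I members and 1.17, 0.97 and 0.99 for those of complexes III, IV and V. The last 3 were 1.10, 0.86 and 0.84 after quantile normalization and 1.38, 1.19 and 1.21 after upper-quartile scaling. Without white skin of pig 2 they were 1.07, 0.94 and 1.03. The median over all mRNAs was -0.31 on the deposited scale, -0.13 after upper-quartile scaling and -0.03 after quantile normalization. The split of calls over all mRNAs went from 391 higher and 539 lower to 558 higher and 294 lower, and to 483 and 217. The cause of these shifts was not tested.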

Other observations

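Of 12 regulators of mitochondrial biogenesis found, 1 rose and none fell, with a median log2 difference of 0.13. That 1 rise is 8.33% of the list, against 2.62% of all mRNAs, and is not read as a result about the list. ESRRA, a nuclear receptor known to bind genes of the respiratory chain, was at 24.2, 28.8 and 21.7 FPKM in white skin and 7.74, 9.36 and 11.95 FPKM in black skin (log2 difference 1.33 ± 0.24 (SE), adjusted p = 0.026). PPARGC1A, a coactivator known to raise mitochondrial content, was low in all samples, at 0.913, 1.65 and 1.74 FPKM in white skin and 0.122, 0.7503 and 0.486 FPKM in black skin, and did not pass (log2 difference 1.05 ± 0.35 (SE), adjusted p = 0.105). Every white sample of PPARGC1A lay above every black sample. NRF1, a factor with sites in many of these genes, had a negative difference and overlapped between the skins, at 2.91, 7.31 and 2.63 FPKM in white skin and 9.199, 8.86 and 6.51 FPKM in black skin (log2 difference -0.98 ± 0.38 (SE), adjusted p = 0.144). TFAM, which packs and transcribes the mitochondrial genome, was at 17.4, 17.4 and 17.8 FPKM in white skin and 18.3, 13.4 and 15.1 FPKM in black skin (log2 difference 0.17 ± 0.21 (SE), adjusted p = 0.609), and POLRMT, the mitochondrial RNA polymerase, was at 8.203, 9.65 and 9.09 FPKM in white skin and 11.7, 15.97 and 15.2 FPKM in black skin (log2 difference -0.63 ± 0.23 (SE), adjusted p = 0.118). The skins overlapped for TFAM, while every white sample of POLRMT lay below every black sample.

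Some mitochondrial genes had 1 sample far from the rest. CS, the citrate synthase, was at 44.4, 63.4 and 48.7 FPKM in white skin and 63.4, 9.19 and 47.7 FPKM in black skin (log2 difference 0.75 ± 0.63 (SE), adjusted p = 0.451), with black skin of pig 2 well below the others. VDAC1, the main channel of the outer membrane, was at 38.5, 158 and 126 FPKM in white skin and 103, 73.04 and 83.5 FPKM in black skin (log2 difference 0.10 ± 0.49 (SE), adjusted p = 0.903), with white skin of pig 1 lowest.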
